A study of Mus musculus with 12 samples.

Results

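Cytosolic ribosomal protein genes encode the protein subunits of the ribosome that works in the cytoplasm. Their messenger RNAs (mRNAs) were followed here in mouse peritoneal macrophages, with and without bacterial lipopolysaccharide (LPS). The genes were taken by symbol. They were the rows named Rpl or Rps with a number, together with Rpsa, Rplp0, Rplp1 and Rplp2, without the Rps6k kinases and without symbols that mark a pseudogene. This gave 88 of the 16920 genes in the tables. Of these, 46 encode canonical proteins of the large (60S) subunit and 31 canonical proteins of the small (40S) subunit. The remaining 11 are paralogs, close copies and 1 gene, Rps19bp1, that encodes a partner of Rps19 and no subunit.

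To investigate how Ythdf1, a protein that binds mRNAs carrying N6-methyladenosine, bears on the macrophage response to LPS, the study sequenced mRNA from 12 libraries in 4 groups of 3. Wild-type (WT) cells and cells labelled Ythdf1-/- (KO) each received either PBS or LPS. LPS was given at 1 µg/mL for 6 h, and PBS for the same time, after a night in culture. The mice were C57BL/6 and 6 to 10 weeks old. The knockout was made with CRISPR/Cas9 and is carried by every cell of the mouse, and the paper describes the libraries of a group as independent biological replicates, without the number of animals behind each. To draw cells into the peritoneum, starch broth was used according to the series record and thioglycollate according to the methods of the paper.

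A ribosome holds 1 copy of nearly every subunit protein, so cells make the subunits in matched amounts. In mammals the mRNAs of ribosomal proteins start with a C followed by an unbroken run of pyrimidines, the 5' terminal oligopyrimidine (TOP) tract. Through this tract the mTOR pathway and the RNA-binding protein Larp1 hold their translation and stability in common. Beside this, many mammalian ribosomal protein genes have left processed copies in the genome, from which reads are hard to tell apart.

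Total counts lay between 21546274 and 22017005 per library. Levels are given as CPM, the usual depth-corrected count, with libraries scaled by TMM (trimmed mean of M values). Scaling factors were 1.26 to 1.31 in the PBS groups and 0.744 to 0.808 in the LPS groups, which matters for every LPS comparison below. Ythdf1 itself lay at 43.6, 45.0 and 41.9 CPM in WT PBS, 212, 198 and 194 in WT LPS, 55.4, 58.1 and 58.1 in KO PBS and 196, 192 and 205 in KO LPS. The KO-labelled libraries were thus not lower, and under PBS they lay above WT without overlap. The paper's text does not say which part of the gene the deletion removes, so counts summed over the gene cannot check the knockout label. All 10 macrophage markers (such as Csf1r, Adgre1 and Lyz2) were found, with a summed level of 22153 to 27558 CPM. Markers of B cells (6 of 7 in the tables), T cells (6 of 7), neutrophils (6 of 8), and mast cells and eosinophils (5 of 7) summed to at most 16.02 CPM in any library. Those of mesothelium and fibroblasts (7 of 7) summed to 20.4 to 66.2 CPM. Skeletal muscle genes (6 of 6) summed to 17.8 to 23.7 CPM in WT PBS, 29.96 to 35.6 in WT LPS, 0.35 to 20.4 in KO PBS and 0.43 to 0.69 in KO LPS. No listed marker in the tables was at 0 in all 12 libraries.

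The start sites show the shared feature of the family and where it is not seen in the annotated sequence. RefSeq promoters (build GRCm38.p6) were matched for 68 of the 88 members. A tract, defined here as a C within 5 bases of the annotated start and at least 4 further C or T bases on the transcribed strand, stood in 31 of the 68 (45.6%), against 5718 of 27025 genes in the whole promoter table (21.2%). Windows of 30 bases around the start are printed for some members whose responses are described below, from 15 bases before it, with the tract in capitals. Where RefSeq gives several starts, the one with a tract is shown, and for Rpl10a, where neither start has one, both are. Rps9, Rps24, Rpl35a and Rpl15 rose with LPS and carry a tract, Rpl24 rose most and has none in this window, Rpl12 and Rpl13a fell in KO-labelled cells and carry one, Rpl10a fell there and has none, and Rps28, whose response differed between labels, has none.
Rpl24, chr16:55966260-55966289, plus strand: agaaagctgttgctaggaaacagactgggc
Rps9, chr7:3704026-3704055, plus strand: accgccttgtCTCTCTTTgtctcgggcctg
Rps24, chr14:24490663-24490692, plus strand: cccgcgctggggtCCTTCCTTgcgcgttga
Rpl35a, chr16:33056467-33056496, plus strand: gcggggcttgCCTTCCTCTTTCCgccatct
Rpl15, chr14:18270972-18271001, minus strand: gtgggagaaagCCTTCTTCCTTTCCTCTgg
Rpl12, chr2:32961697-32961726, plus strand: ggcggagcaggatccgtCTTTTCggctttc
Rpl13a, chr7:45128731-45128760, minus strand: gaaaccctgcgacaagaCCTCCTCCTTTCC
Rpl10a, chr17:28328456-28328485, plus strand: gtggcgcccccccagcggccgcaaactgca
Rpl10a, chr17:28328550-28328579, plus strand: gctctatttgagcgcatgcgcaaagcgctc
Rps28, chr17:33824548-33824577, minus strand: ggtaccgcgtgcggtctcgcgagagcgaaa
A window without a tract says only that these letters do not stand at the start annotated here. Other motifs were counted on both strands over 300 bases, from 250 before to 50 after the start. The motif CGGAAG, the core bound by ETS factors, stood in 44 of 68 members (64.7%), 18.8% of all genes in the promoter table and 29.2% of the other genes in the count tables. AAGATGG stood in 14.7% of members, 7.28% of all genes and 7.59% of the other genes in the count tables. TATAAA stood in 11.8% of members, between the 15.7% of all genes and the 10.6% of the other genes in the count tables.

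The deposited values are expected counts, in which reads that fit several genes are shared between them. For 46 of the 88 members the value was a whole number in all 12 libraries, and for 23 it carried decimals in all 12. Rps27 and its intronless copy Rps27rt show what this sharing does. Rps27 lay at 4.38, 19.7 and 22.3 CPM in WT PBS, 15.96, 6.89 and 32.9 in WT LPS, 17.1, 9.69 and 46.4 in KO PBS and 26.8, 61.9 and 13.2 in KO LPS. The values of 1 group differed severalfold, and all 4 groups overlapped. Each gene carried decimals in all 12 libraries, yet the sum of the pair was whole in all 12 within 0.015 counts. The pair summed gave a log2 fold change with LPS of 0.44 in WT (adjusted p = 0.0027) and 0.34 in KO (adjusted p = 0.0133), while neither gene alone passed the test. Rpl32 and Rpl32l also summed to whole counts in all 12 libraries, and Rpl37 and Rpl37rt in 3. Rps6, the subunit that S6 kinases phosphorylate, carried decimals in all 12 libraries and lay at only 13.6, 14.1 and 9.44 CPM in WT PBS and 12.8, 15.5 and 18.2 in WT LPS. Its groups overlapped, and single values of Rps27, Rps27rt, Rpl37, Rpl37rt and Rps6 are uncertain. For Rpl32 the sharing with Rpl32l weighs little, since Rpl32l held 1.15 to 9.28 counts per library where the pair summed to 2292 to 5328. Results for Rpl24, Rps9, Rpl35a, Rpl15, Rpl3, Rpl13a, Rpl10a and Rps28 rest on whole counts in every library.

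A filter on low counts left 84 members for testing. The 4 that fell out were Rpl10l (0 to 3 counts per library), Rpl3l (2.55 to 7.45), Rpl39l (5 to 12) and Rpl32l (1.15 to 9.28). Rpl3l is the paralog of Rpl3 used in striated muscle, and Rpl10l and Rpl39l are those of Rpl10 and Rpl39 used in the male germ line. Levels between members were compared as CPM per kb of mRNA, with the shortest principal GENCODE transcript as the length. Over the 77 canonical subunits the median in WT PBS was 253 CPM per kb, with quartiles at 186 and 339. Rpl41, the smallest protein of the ribosome, had the highest level with this length in all 4 groups, at 815 ± 30.001 CPM per kb in WT PBS (SD, n = 3), before Rpl10 (696 ± 22.5), Rps2 (613 ± 19.0) and Rplp1 (538 ± 14.5). At the lower end stood Rps19bp1 (13.2 ± 0.92), Rps6 (14.1 ± 2.90), Rpl22l1 (20.7 ± 1.47) and Rps20 (31.0 ± 1.90). Rps20 is placed low by a principal transcript of 3706 bases, and with the longest principal transcript Rps10 moved from rank 5 to rank 25 and Rpl10 (650.3 CPM per kb in WT PBS) passed Rpl41 (612), so single ranks depend on the transcript model. Of the 82 pairs of neighbours in this order, 67 differed by no more than the larger of their SDs.

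The first question was whether the family as a whole changed with LPS. Members took 1.99%, 2.15% and 2.04% of all counts in the WT PBS libraries and 1.35%, 1.59% and 1.61% in the WT LPS libraries. They took 1.95%, 2.02% and 1.96% in KO PBS and 1.31%, 1.43% and 1.16% in KO LPS. Every LPS library lay below every PBS library, and the 2 labels overlapped under LPS. Under PBS the KO-labelled and WT libraries overlapped as well. The group means were 2.06% ± 0.085 and 1.52% ± 0.144 in WT, and 1.98% ± 0.040 and 1.299% ± 0.134 in KO (SD, n = 3). Scaled with TMM, the same sums went the other way. They went from 16258 ± 607 to 18976 ± 1516 CPM in WT and from 15088 ± 305 to 17264 ± 1647 CPM in KO, with no overlap between PBS and LPS. The share compares the members with all mRNA, whereas TMM compares them with the middle of the genes. The median log2 fold change of all 12064 genes tested was -0.05 with TMM and -0.71 with library totals alone in WT, and -0.04 and -0.84 in KO. In bulk samples such as these, fewer cells of a type and less RNA per cell cannot be told apart, and the total RNA of a cell was not measured.

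**Figure D1:**
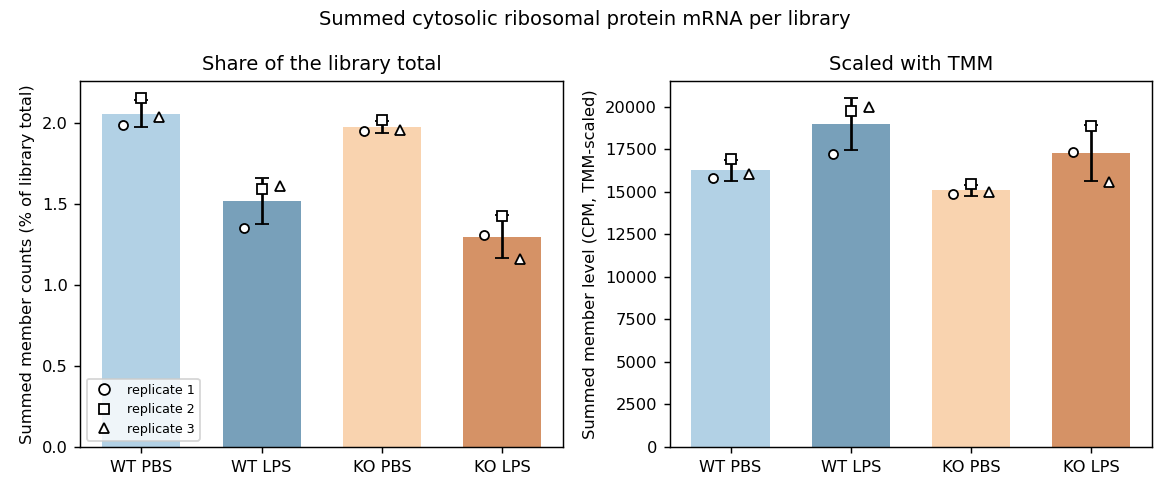
Summed member level in each library, as a share of the library total in percent (left) and as TMM-scaled CPM (right), with bars for the group mean, error bars for the SD of 3 libraries and symbols for the replicates. The LPS bars stand below the PBS bars on the left (1.52% against 2.06% in WT) and above them on the right (18976 against 16258 CPM in WT).

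Tested member by member, 47 of 84 rose and 1 fell with LPS in WT, by edgeR's quasi-likelihood test with TMM scaling. Of all genes tested, 36.5% rose and 40.2% fell. The member median was 0.23 on the log2 scale, and single members ran from -0.19 (Rpl3) to 1.24 (Rpl24). Without replicate 3 of WT LPS the number that rose was 30 of 85, and in that fit 34.9% of all genes rose. In KO, 35 rose and 5 fell, against 38.8% and 41.1% of all genes, with a median of 0.20 and a range from -0.33 to 1.57. That median was 0.10 without replicate 2 of KO LPS. With library totals alone, 71 fell and 2 rose in WT (68.4% and 18.4% of all genes) and 74 fell and 2 rose in KO (69.5% and 18.3%). The member median was then -0.44 in WT and -0.60 in KO, which is above that of all genes (-0.71 and -0.84). By subunit, with TMM, 26 of 46 large and 17 of 31 small subunit genes rose in WT, and 20 of 46 and 12 of 31 in KO. Among the marker lists, 5 of 6 skeletal muscle genes fell with LPS in KO and 0 of 6 in WT, while 3 of 7 mesothelium and fibroblast markers rose in WT and 5 of 7 in KO. The latter summed to 39.1 to 45.5 CPM in WT PBS, 60.2 to 66.2 in WT LPS, 20.4 to 27.2 in KO PBS and 31.6 to 41.6 in KO LPS. Of the 10 macrophage markers 7 rose in WT and 5 in KO, and 1 fell in each. The part of these marker changes in the member result was not tested.

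**Figure D2:**
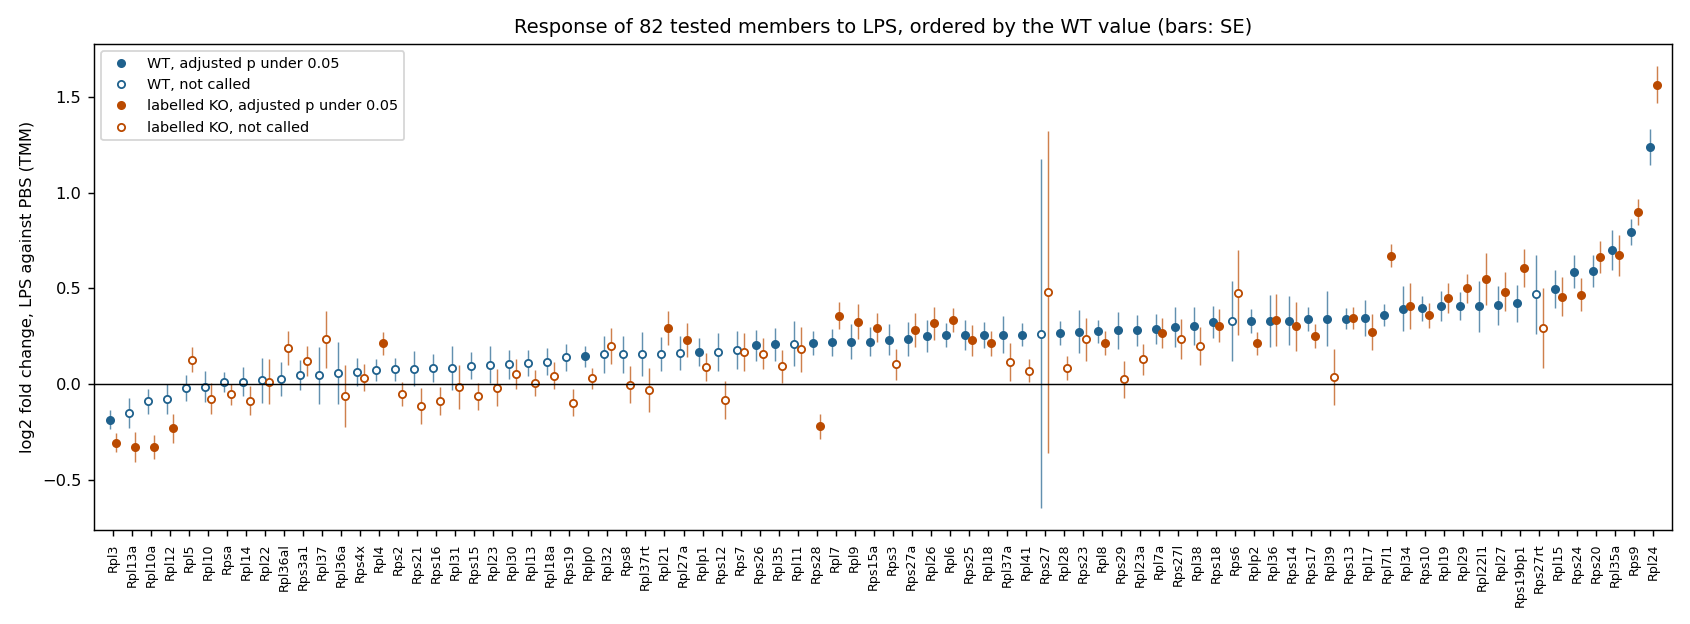
Log2 fold change (TMM) of 82 of the 84 tested members with LPS, in WT and in KO-labelled cells, ordered by the WT value, with bars for the SE and filled points for an adjusted p under 0.05. Rpl24 and Rps9 stand at the right end in both labels, at 1.24 and 0.79 in WT, and Rpl3 stands at the left end of the order at -0.19.

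Rpl24 and Rps9 were among the members with the largest rise. Rpl24 (chr16:55966275-55971437, GRCm38) encodes a large-subunit protein that reaches across to the small subunit. It lay at 133, 157 and 143 CPM in WT PBS and 304, 361 and 358 in WT LPS, and at 134, 132 and 124 in KO PBS and 403, 428 and 325 in KO LPS. The LPS libraries stood far above the PBS libraries in both labels, with no overlap. The log2 fold change was 1.24 ± 0.10 (SE) in WT (adjusted p = 5.12e-09) and 1.57 ± 0.10 in KO (adjusted p = 2.31e-10).

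Rps9 (chr7:3703954-3706897), a small-subunit protein that shapes the decoding of mRNA, went from 250.2, 259.8 and 247 to 400.3, 450.2 and 462 CPM in WT. It went from 228, 239.7 and 241 to 437, 477 and 407 CPM in KO, and the log2 fold changes were 0.79 ± 0.07 and 0.90 ± 0.07 (adjusted p = 1.18e-08 and 2.03e-09). Rpl24 rose past the threshold in both labels under each of 5 scalings. Rps9 lay above 0 under all 5 but at 0.13 in WT (adjusted p = 0.0947) and 0.10 in KO (adjusted p = 0.204) with library totals alone.

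Further rises in WT were those of Rpl35a, Rps20, Rps24 and Rpl15, which were singled out after their values were seen. Rpl35a, Rps24 and Rpl15 are among the subunits mutated in Diamond-Blackfan anaemia, a failure of red cell formation. Rpl35a lay at 101.4, 106 and 103 CPM in WT PBS and 135, 189 and 180.0 in WT LPS, and Rps24 at 276, 301 and 284 in WT PBS and 367, 471 and 457 in WT LPS. For both genes every LPS library lay above every PBS library. The log2 fold changes with TMM were 0.70 ± 0.11 and 0.59 ± 0.09 in WT, and 0.67 ± 0.11 and 0.47 ± 0.09 in KO. Rps20 reached 0.59 ± 0.08 and 0.67 ± 0.08, and Rpl15 0.50 ± 0.10 and 0.46 ± 0.10. With library totals alone Rpl35a was at 0.04 in WT and -0.13 in KO and was called in neither, so that in WT it kept its sign and lost its call. Rps24, Rps20 and Rpl15 were below 0 in both labels with totals alone.

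At the other end, Rpl3 was called lower in both labels. Rpl3 (chr15:80077781-80083406), which lies near the catalytic centre of the large subunit, stood at 405, 412 and 393 CPM in WT PBS and 354, 350.1 and 359.8 in WT LPS. It stood at 366, 368 and 371 in KO PBS and 299, 306 and 288 in KO LPS. In neither label did LPS libraries reach the PBS range, and the log2 fold changes were -0.19 ± 0.05 (adjusted p = 0.00255) and -0.31 ± 0.05 (adjusted p = 2.27e-05). Its direction and its call held in both labels under all 5 scalings. Rpl13a, which also joins a complex that silences inflammatory mRNAs in myeloid cells, lay at 212, 217 and 220.2 CPM in KO PBS and 174, 191 and 151 in KO LPS. Rpl10a lay at 212, 239 and 228 in KO PBS and 178, 196 and 166 in KO LPS. Rpl12, at the base of the stalk, lay at 233, 239 and 224 in KO PBS and 200.4, 212 and 179 in KO LPS. All 3 fell in KO without overlap, to log2 fold changes of -0.33, -0.33 and -0.23 (adjusted p = 0.00111, 0.000188 and 0.0119). In WT they stood at -0.15, -0.09 and -0.08 and did not pass the test.

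**Figure D3:**
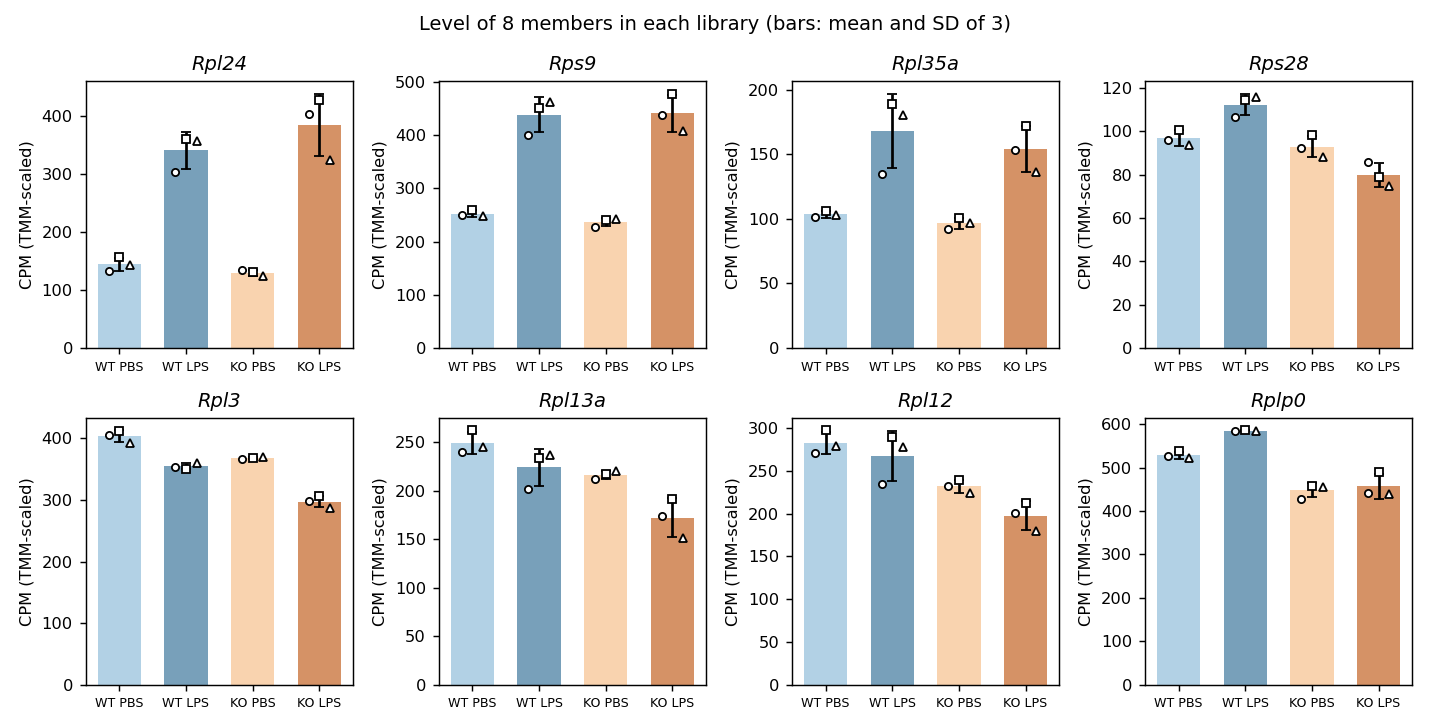
TMM-scaled CPM of 8 members in each library, with bars for the group mean, error bars for the SD of 3 libraries and a symbol for each replicate (circle 1, square 2, triangle 3). Rpl24, Rps9 and Rpl35a stand higher with LPS in both labels, Rps28 is higher with LPS in WT (112 against 96.8 CPM) and lower in KO (79.8 against 92.9 CPM), and Rplp0 is lower in KO-labelled cells in both treatments.

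Because the direction for most members rests on the scaling, each member was also set against the family, with libraries scaled to their summed member counts. This choice was made after the data were seen. In WT, 11 of 84 members then rose and 11 fell (26.7% and 47.3% of all genes), and in KO 15 rose and 19 fell (30.8% and 45.8%). These 2 comparisons share no library. All 11 that rose in WT were among the 15 of KO (73.3%), among them Rpl24, Rps9, Rpl35a, Rps20, Rps24, Rpl15, Rpl29, Rpl27, Rpl19 and Rps10. Of those that fell, 8 were shared (72.7% of the 11 and 42.1% of the 19), among them Rpl3, Rpl13a, Rpl10a, Rpl12, Rpl10, Rpl14 and Rpsa. With TMM, 32 of the members that rose were shared (68.1% in WT and 91.4% in KO), beside 92.9% and 87.4% for all genes. Of the members that fell with TMM, 1 was shared (100% and 20%), beside 90% and 88.1% for all genes. The overlap for all genes under scaling to the member counts was not computed. Across the 84 members the 2 responses had a Pearson correlation of 0.91 with TMM, beside 0.95 across all 12064 genes. Members are not independent replicates, and this is a description only.

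As a share of the member counts, Rpl24 made up 0.84, 0.93 and 0.89% in WT PBS and 1.77, 1.83 and 1.79% in WT LPS. It made up 0.90, 0.86 and 0.83% in KO PBS and 2.32, 2.27 and 2.09% in KO LPS. Rpl13a made up 1.52, 1.55 and 1.53% in WT PBS, 1.17, 1.18 and 1.18% in WT LPS, 1.43, 1.41 and 1.47% in KO PBS and 1.00, 1.01 and 0.97% in KO LPS. On this measure, which sets each library against its own summed member counts as the scaling above does, neither gene overlapped between PBS and LPS in either label. Among the 64 tested members with a matched promoter, the 30 with a tract at the start had a median log2 fold change (TMM) of 0.29 in WT and 0.23 in KO, and the 34 without had 0.15 and 0.11. The ranges overlapped widely, from -0.15 to 0.79 and from -0.09 to 1.24 in WT.

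The P-stalk proteins Rplp0, Rplp1 and Rplp2 draw translation factors to the large subunit. With LPS in WT, where 36.5% of all genes rose, all 3 rose, by 0.14, 0.17 and 0.33 on the log2 scale (adjusted p = 0.0255, 0.0478 and 0.000125), and in KO Rplp2 rose by 0.21 (adjusted p = 0.00477). Rplp2 carried decimals in all 12 libraries. Of the paralogs, Rpl7l1, a relative of the yeast assembly factor Rlp7, lay at 63.8, 65.6 and 60.8 CPM in WT PBS, 79.5, 79.4 and 85.5 in WT LPS, 60.6, 57.1 and 58.0 in KO PBS and 88.7, 96.2 and 95.0 in KO LPS. It carried decimals in all 12 libraries. It rose in both labels without overlap, by 0.36 in WT and 0.67 in KO (adjusted p = 3.21e-05 and 1.63e-08). Rpl22l1 rose by 0.41 and 0.55 (adjusted p = 0.0108 and 0.00144), beside 0.02 and 0.01 for Rpl22, which did not pass the test. Rps27l, a target of p53, rose by 0.30 in WT (adjusted p = 0.0155) and stood at 0.23 in KO (adjusted p = 0.0513). Rpl36al stood at 0.03 and 0.19 and Rpl36a at 0.06 and -0.06, none past the threshold. Rps19bp1 rose by 0.42 and 0.61 (adjusted p = 0.000917 and 2.56e-05). All of these rises were below 0 with library totals alone.

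A list of 12 genes with known roles outside the ribosome held 11 members and Rack1, which is no member by symbol. With LPS in WT 5 of the 12 rose (36.5% of all genes), namely Rpl26 (0.25), Rpl38 (0.30), Rps3 (0.23), Rps27a (0.24) and Rack1 (0.25). Rpl26 acts on p53 mRNA, Rpl38 on the translation of Hox mRNAs, Rps3 also serves in NF-kB complexes, and Rps27a is made as a fusion with ubiquitin. In KO 3 rose, Rpl26 (0.32), Rps27a (0.28) and Rack1 (0.30), and 1, Rpl13a, fell as given above (38.8% and 41.1% of all genes). Library totals alone gave 0 rises and 11 falls among the 12 in each label (18.4% and 68.4% of all genes in WT, 18.3% and 69.5% in KO). The Mdm2-binding subunits Rpl5, Rpl11 and Rpl23 stood at -0.02, 0.21 and 0.10 in WT and passed the test in neither label, nor did Rpl22, Rps6 and Rps19.

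The second question was whether the label KO went with a different level of these mRNAs. Under PBS, 9 of 84 members were lower and 0 higher in KO-labelled cells, by edgeR (13% and 12.3% of all genes). At an unadjusted p under 0.05, 16 were lower and 0 higher, and DESeq2 called 10 lower and 0 higher. The median was -0.09, beside 0.00 for all genes, and 77 of 84 members lay below 0. The largest differences among the 9 were those of Rpl32 (-0.29, adjusted p = 0.0339), Rpl12 (-0.29, adjusted p = 0.0132) and Rplp1 (-0.26, adjusted p = 0.0152). Rplp0 lay at 527, 537 and 522 CPM in WT PBS and 429, 459 and 455 in KO PBS, with no overlap, a log2 fold change of -0.24 ± 0.06 (adjusted p = 0.00476). The others called were Rps2, Rpl13, Rpl6, Rpl41 and Rpsa. The count moved with single libraries: it was 0 without replicate 1 of KO PBS (6 lower at an unadjusted p under 0.05), 2 without replicate 3 of KO PBS or replicate 2 of WT PBS, 3 without replicate 1 of WT PBS, 4 without replicate 2 of KO PBS, 5 without replicate 3 of WT PBS and 14 without replicate 1 of WT LPS. Of all genes 7.52% were lower without replicate 1 of KO PBS and 16.3% without replicate 1 of WT LPS, the lowest and the highest share over the 12 fits that leave out 1 library. A fit to the 6 PBS libraries alone called 31 members and 20.2% of all genes lower. Of the mesothelium and fibroblast markers 4 of 7 were lower as well, and their part in the member result was not tested. With library totals alone 3 were lower (10.3% of all genes) and 0 higher (16.5%), and with libraries scaled to the member counts 0 were lower (5.45%) and 0 higher (13.5%), with 3 lower and 0 higher at an unadjusted p under 0.05.

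Under LPS, 25 of 84 members were lower and 2 higher in KO-labelled cells (19.3% and 22.1% of all genes), with a median of -0.13 beside 0.00. Both subunits took part, with 15 of 46 large and 10 of 31 small subunit genes lower. Rps28, a small-subunit protein at the mRNA exit side, lay at 107, 114 and 116 CPM in WT LPS and 85.9, 78.7 and 74.7 in KO LPS. The groups did not overlap, and the log2 fold change was -0.49 ± 0.07 (adjusted p = 2.51e-05). Rpl39, which lines the exit tunnel for the new protein, lay at 57.4, 84.1 and 82.5 CPM in WT LPS and 60.1, 54.1 and 46.5 in KO LPS, and these groups overlapped. Its log2 fold change was -0.48 ± 0.15 (adjusted p = 0.0201), it carried decimals in all 12 libraries, and it lost its call without replicate 2 or 3 of WT LPS (adjusted p = 0.0789 and 0.0733) or replicate 2 or 3 of KO LPS (adjusted p = 0.05003 and 0.0804). Rpl12 lay at 234.8, 289 and 278 CPM in WT LPS and 200.4, 212 and 179 in KO LPS without overlap, a log2 fold change of -0.44 ± 0.08 (adjusted p = 0.000321).

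All 3 stalk genes were lower under LPS in KO-labelled cells, with log2 fold changes of -0.35 for Rplp0, -0.34 for Rplp1 and -0.20 for Rplp2 (adjusted p = 0.000105, 0.00158 and 0.0145). Rps19, the gene most often mutated in Diamond-Blackfan anaemia, was at -0.39 (adjusted p = 0.000368), and Rpl13a at -0.38 (adjusted p = 0.00117). Rpl7l1 was higher (0.20, adjusted p = 0.0147). Under each of 5 scalings, 9 members were called lower, namely Rps28, Rpl39, Rpl12, Rps19, Rpl13a, Rps2, Rpl41, Rplp0 and Rplp1. These are the 9 of 84 (10.7%) called lower relative to the summed member counts, where 8.69% of all genes were lower. The share of all genes lower under all 5 scalings was not computed. The count was 39 lower (26.1% of all genes) and 0 higher (15.9%) with library totals alone. Relative to the summed member counts it was 9 lower (8.69%) and 8 higher (26.8%). The comparisons under PBS and under LPS share no library, and 8 of the 9 members lower under PBS were among the 25 under LPS (88.9% and 32%). For all genes the overlap of lower calls was 49.6% of those under PBS and 33.5% of those under LPS.

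The count under LPS again rested on single libraries. It was 14 without replicate 3 of KO LPS or replicate 3 of WT LPS, 15 without replicate 2 of WT LPS, and 43 without replicate 1 of WT LPS. Of all genes 15.2% to 18.8% were lower in the 12 fits that leave out 1 library. A fit to the 6 LPS libraries alone called 15 members lower and 0 higher, with 22 and 1 at an unadjusted p under 0.05. The 15 of 84 lie near the 16.7% of all genes lower in that fit, where 18.2% were higher. Genes with short mRNAs moved with this comparison. Of 602 tested genes outside the family with an mRNA under 1000 bases, 151 were lower and 49 higher under LPS, with a median of -0.11. The skeletal muscle genes moved as well, 6 of 6 lower in KO LPS, as did 3 of 7 genes of mesothelium and fibroblasts. Of 3 tested T cell markers 1 was lower. The T cell list summed to 10.3 to 14.1 CPM in WT LPS and 5.02 to 5.57 in KO LPS. The 1 tested neutrophil marker was higher, and of 10 macrophage markers 3 were higher and 3 lower. Of 2 tested mast cell and eosinophil markers 1 was higher and 1 lower. The part of mRNA length and of these cells in the member result was not tested.

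**Figure D4:**
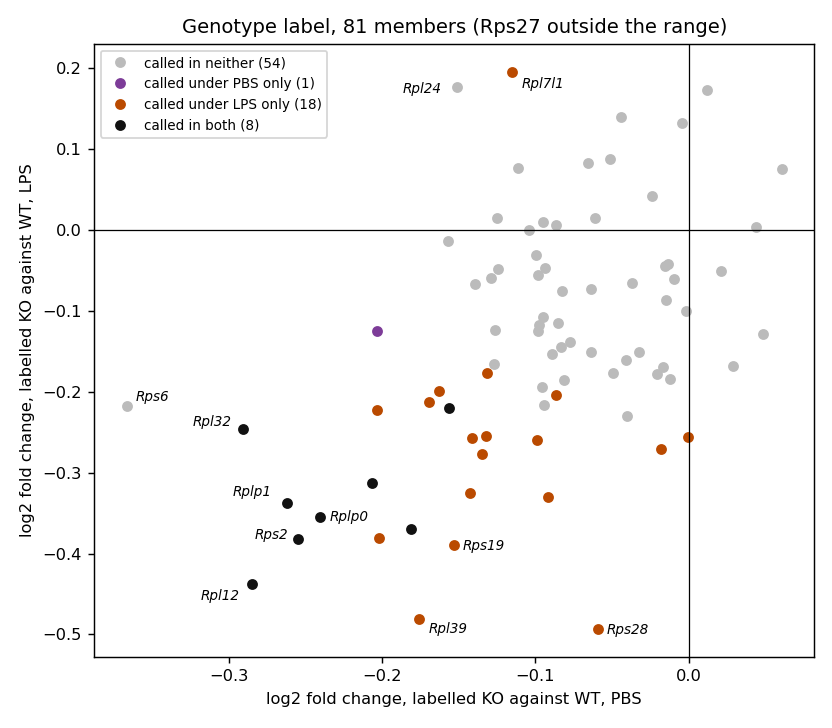
Log2 fold change (TMM) of KO-labelled against WT cells under PBS (horizontal axis) and under LPS (vertical axis) for 81 tested members, coloured by where the adjusted p was under 0.05. Rps27, which shares reads with a copy, lies outside the range at 0.65 and 0.87, most points lie below and left of 0, and Rps28 and Rpl39 stand lowest under LPS at -0.49 and -0.48.

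The third question was whether the response to LPS itself differed between the labels. By the interaction test, 2 of 84 members had a more positive and 1 a more negative response in KO (9.78% and 8.26% of all genes), and the member median was -0.04. Rps28 rose with LPS in WT (0.21 ± 0.06, adjusted p = 0.00669) and fell in KO (-0.22 ± 0.07, adjusted p = 0.00577). The difference was -0.43 ± 0.09 (adjusted p = 0.00401). The rise in WT depended on the scaling, since Rps28 stood at -0.45 in WT and -1.02 in KO with library totals alone. Rpl7l1 rose more in KO, by 0.31 ± 0.08 (adjusted p = 0.0173). With library totals alone 0 were higher (5.2% of all genes) and 8 lower (16.1%), and relative to the summed member counts 0 were higher (4.16%) and 0 lower (2.27%), with 3 and 1 at an unadjusted p under 0.05. For Rpl24 the difference was 0.33 ± 0.13 and did not pass the test (adjusted p = 0.106). Rps28 lost its call when libraries were scaled to the member counts (-0.40, adjusted p = 0.061), as did Rpl7l1 (0.34, adjusted p = 0.136). Rpl7l1 also lost it with library totals (adjusted p = 0.165) and when replicate 1 or 2 of WT PBS, or replicate 2 or 3 of KO PBS, was left out.

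Between replicates of 1 group most members deviated in the same direction. In replicate 1 of WT LPS, 1 of 84 members lay above the mean of its group, and the median deviation was -0.16 on the log2 scale. In replicate 3 of WT LPS 82 members lay above it, with a median of 0.08. Replicate 3 of KO LPS had 3 of 84 above the group mean and a median of -0.16, and replicate 2 of KO LPS had 80 and 0.13. In the PBS groups the medians ran from -0.05 to 0.07, with 81 members above the mean in replicate 2 of WT PBS. The median deviation of all other genes was within 0.015 of 0 in every library, which TMM largely fixes, since it aligns the middle of the genes. Replicate 1 of WT LPS also differed most from its own group over all genes, with a mean chi-square per gene of 32.7 and 25.5 against replicates 2 and 3, which were at 3.08 from each other. A shift of the whole family by 1 library thus has the size of the genotype medians given above, and the calls of single members are not independent of each other.

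**Figure D5:**
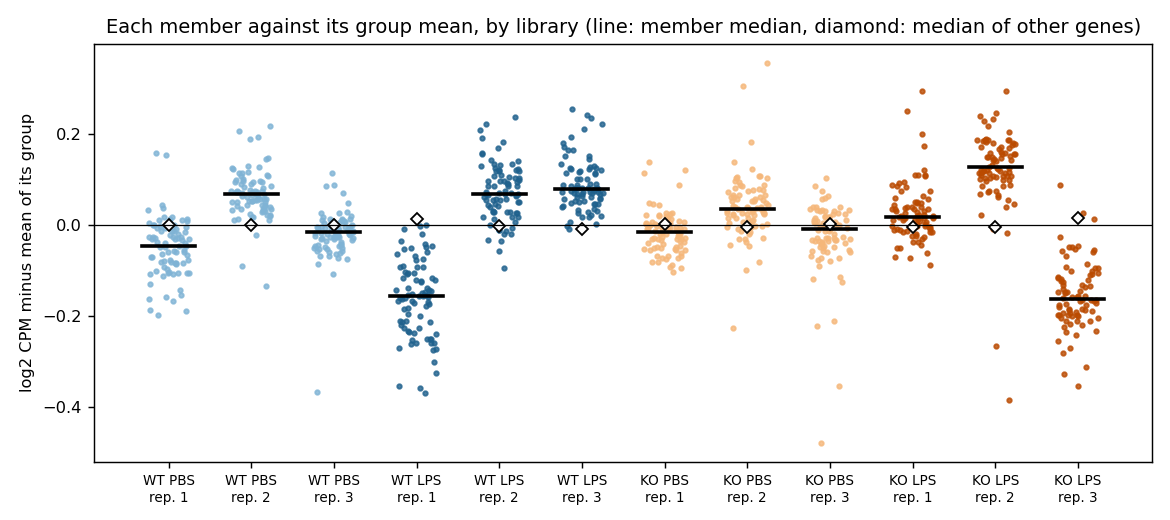
Log2 CPM of each member minus the mean of its group, in each of the 12 libraries, with a line for the member median and a diamond for the median of all other genes (Rps27 not drawn). Nearly all points of WT LPS replicate 1 and KO LPS replicate 3 lie below 0, with medians of -0.16 in both. The diamonds lie within 0.015 of 0, where TMM scaling largely places them.

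Genes around the family gave a frame for these values. Of 3 listed subunits whose symbols lie outside the rule, 3 rose with LPS in WT (36.5% of all genes). With library totals alone all 3 fell (68.4%). Fau and Rack1, 2 of these, rose in WT by 0.23 and 0.25 (adjusted p = 0.0235 and 0.000633). In KO Rack1 rose by 0.30 (adjusted p = 0.000111), whereas Fau stood at 0.10 (adjusted p = 0.316). Under LPS 2 of the 3 were lower in KO-labelled cells (19.3% of all genes). Rack1 was among them (-0.23, adjusted p = 0.00388), and Fau stood at -0.14 (adjusted p = 0.218). Of 18 other mRNAs known to carry a TOP tract, 10 rose and 2 fell in WT, and 9 rose and 3 fell in KO, with medians of 0.19 and 0.16. Of all genes 36.5% rose and 40.2% fell in WT, and 38.8% and 41.1% in KO. For the 18 mRNAs library totals alone gave 2 rises and 15 falls in WT. Pabpc1, the poly(A)-binding protein, rose most (1.45 and 1.75), followed by Btf3 (0.85 and 0.97), part of the complex that receives new proteins, and the filament protein Vim (0.84 and 0.84). Eif4b, an initiation factor, fell in both labels (-0.62 and -0.44). Of 14 regulators of TOP translation 6 rose and 6 fell in WT, and 5 and 5 in KO, near those shares of all genes. Library totals alone gave 2 rises and 9 falls in WT and 3 and 10 in KO.

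Larp1, which binds TOP tracts directly, lay at 162, 148 and 158 CPM in WT PBS and 1421, 1145 and 1179.6 in WT LPS. It lay at 142, 136 and 146 in KO PBS and 1272, 1208 and 1345 in KO LPS. This was a log2 fold change of 3.0009 ± 0.08 in WT and 3.17 ± 0.08 in KO (adjusted p = 2.03e-15 and 9.22e-16), with no overlap. Its relative Larp1b rose by 1.85 and 2.30, and Eif4ebp2, a brake on cap-dependent translation, fell (-1.78 and -2.09).

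Of 40 genes of ribosome biogenesis, 11 rose and 19 fell with LPS in WT (median -0.19), and 15 rose and 10 fell in KO (median 0.02), beside the shares of all genes given above. Library totals alone gave 2 and 35 in WT and 3 and 32 in KO. Wdr43 rose by 2.27 in WT and 2.4999 in KO, while the RNA acetyltransferase Nat10 (-1.52 and -1.50) and the RNA polymerase I subunit Polr1b (-1.38 and -1.31) fell. The interaction was positive for 14 and negative for 0 of the 40 by edgeR, with a median of 0.32, and at an unadjusted p under 0.05 for 22 and 0. Of all genes 9.78% were positive and 8.26% negative. The list gave 5 positive and 0 negative with library totals alone, with a median of 0.18. Gnl3, a nucleolar GTPase, had the largest (0.68 ± 0.12, adjusted p = 0.00129), followed by Nop58, a core protein of small nucleolar RNA particles (0.67 ± 0.17, adjusted p = 0.0102). Under LPS, 14 of the 40 were higher and 1 lower in KO-labelled cells, where 22.1% of all genes were higher and 19.3% lower. Among members these numbers were 2 and 25 of 84. For the 40 they were 11 and 6 with library totals alone. Of 78 mitochondrial ribosomal proteins, which belong to the separate ribosome inside mitochondria, 27 rose and 20 fell in WT (36.5% and 40.2% of all genes) and 29 rose and 25 fell in KO (38.8% and 41.1%), with medians of 0.04 and -0.02. Library totals alone gave 4 rises and 63 falls in WT (18.4% and 68.4%).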

How the data were processed

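mRNA of 12 libraries of peritoneal macrophages was sequenced as single reads of 50 bases. The deposited values are expected counts per gene, which the authors made from the reads. The submitters' processing notes name Bowtie2, RSEM 1.3.1 and GRCm38.p6, whereas the paper's methods name STAR and HTSeq. The decimals in the values mean that shared reads were split between genes. Expected counts were rounded to whole numbers. Depth was 21546274 to 22017005 counts per library, and 3 counts correspond to 0.105 to 0.187 CPM, for counting error only. The paper's methods call the libraries of a group independent biological replicates but do not say whether these were separate animals or cultures, so p-values measure the spread between these libraries.

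Groups were taken from the labels. With edgeR 4.0.16 in R 4.3.3, TMM scaling and filterByExpr, a quasi-likelihood model with robust dispersion was fitted to all 12 libraries with a mean per group. Tests were two-sided, p-values were adjusted by Benjamini and Hochberg over 12064 genes, and calls were made at an adjusted p under 0.05. The SE is the log2 fold change divided by the square root of the F value. The fit was tested on simulated data. Alternatives were RLE, upper-quartile and total scaling, other filters, DESeq2 1.42.0, unrounded values, a replicate block and leaving out each library. Scaling to the summed member counts and summing close copies were added after seeing the data. The members and the gene lists were chosen with earlier results of these data known. Named members are, in each comparison, the 3 called in each direction with the largest change and a mean of at least 5 CPM, and called members of the stalk, paralog and extra-ribosomal lists. Some genes these rules would name are not reported here, though they stay in the fits and counts. Others are named as examples chosen after their values were seen. Promoters come from RefSeq, and gene coordinates and mRNA lengths from the GENCODE annotation of GRCm38.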

Additional observations from a re-analysis of the deposited data

Results flagged for a closer look

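Of the 84 members tested, 3 responded to LPS differently in WT and KO-labelled cells by edgeR's interaction test. For Rps28 the difference between the log2 fold changes was -0.43 (adjusted p = 0.00401), with a rise in WT and a fall in KO under TMM scaling. With library totals alone Rps28 stood at -0.45 in WT and -1.02 in KO, and relative to the summed member counts the difference lost its call (-0.40, adjusted p = 0.061). For Rpl7l1 it was 0.31 (adjusted p = 0.0173), with a rise in both labels that was larger in KO under TMM scaling. Rpl7l1 stood at -0.30 in WT and -0.13 in KO with library totals alone, and the interaction did not pass the test (0.17, adjusted p = 0.165), nor did it relative to the summed member counts (0.34, adjusted p = 0.136) or when any 1 of 4 libraries was left out. Of all 12064 genes, 9.78% had a positive and 8.26% a negative difference that passed the same test.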

How the results depend on the processing

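Named members kept direction and call in 912 of 1053 values recomputed under the alternatives, lost the call in 112 and changed sign in 29. These members were named because they were called in the main fit. Many alternatives, such as unrounded values or leaving out a library not compared, barely changed the comparison. The pooled numbers are therefore no measure of stability. With upper-quartile scaling, which moved the median of all genes to -0.36 in WT, 6 members rose and 20 fell with LPS in WT (median -0.0823; 26.1% and 54% of all genes) and 7 and 34 in KO (median -0.16; 27.7% and 54.4%). KO against WT under LPS then had 34 lower (24.2% of all genes) and 0 higher (17.2%), with 0 higher at an unadjusted p under 0.05, and the interaction 1 higher. With it Rplp0 (-0.17), Rplp1 (-0.14), Rps27l (-0.00999), Rpl26 (-0.0572), Rpl38 (-0.00525), Rps3 (-0.0783) and Rps27a (-0.0731) changed sign in WT, and Rplp2 (-0.14), Rpl26 (-0.037) and Rps27a (-0.072) in KO. With library totals alone, 2 rose and 71 fell in WT (median -0.44) and 2 and 74 in KO (median -0.60). The label KO then went with 3 lower under PBS, 39 lower and 0 higher under LPS, and the interaction was 0 higher and 8 lower (median -0.18). By sign, Rplp0 (-0.52), Rplp1 (-0.50), Rplp2 (-0.33), Rpl22l1 (-0.25), Rps27l (-0.36), Rpl7l1 (-0.30), Rps19bp1 (-0.24), Rpl26 (-0.41), Rpl38 (-0.36), Rps3 (-0.43) and Rps27a (-0.43) turned in WT, and Rplp2 (-0.59), Rpl22l1 (-0.25), Rpl7l1 (-0.13), Rps19bp1 (-0.19), Rpl26 (-0.48) and Rps27a (-0.52) in KO. Scaled to the summed member counts, 11 rose and 11 fell in WT (median 0.00497) and 15 and 19 in KO (median 0.000171). KO against WT was 0 lower under PBS (3 at an unadjusted p under 0.05, median 0.0142) and 8 higher and 9 lower under LPS (median 0.0035). The interaction was 0 and 0 by edgeR (3 and 1 unadjusted), and Rplp0 (-0.0726) and Rplp1 (-0.0573) changed sign with LPS in WT. These 3 scalings change the reference, and no other cause was tested.

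Over whole-number members alone, 29 rose in WT, 22 rose in KO, 3 were lower under PBS, 15 lower and 1 higher under LPS, and 1 had a positive interaction. These are fewer members by construction, as is their share of counts, 1.13% in WT PBS, 0.848% in WT LPS, 1.08% in KO PBS and 0.731% in KO LPS. Without the 100 highest other genes in the total, the shares were 3.09%, 2.35%, 2.94% and 2.004%. Without a filter, 2 fell with LPS in WT and 2 had a negative interaction. With at least 10 counts in every library, 2 fell in WT and 1 was higher under LPS in KO-labelled cells. Fitted to the libraries compared, 31 were lower under PBS (20.2% of all genes), and 15 lower (16.7%) and 0 higher (18.2%) under LPS. RLE scaling gave 1 positive and DESeq2 2 negative interactions. The cause of these changes was not tested.

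Leaving out 1 library at a time gave 30 to 59 higher and 1 to 2 lower in WT (median 0.19 to 0.30), and 31 to 49 higher and 4 to 5 lower in KO (median 0.10 to 0.27). Of all genes 34.6% to 37.2% rose and 37.7% to 40% fell in WT, and 37.1% to 39.5% and 38.9% to 41.3% in KO. Under PBS 0 to 14 were lower and 0 to 0 higher (median -0.10 to -0.05), and under LPS 14 to 43 lower and 1 to 3 higher (median -0.22 to -0.07). The shares of all genes were 7.52% to 16.3% lower and 8.68% to 15.5% higher under PBS. Under LPS they were 15.2% to 18.8% lower and 18.3% to 22.6% higher. The interaction had 0 to 3 higher and 1 to 5 lower (median -0.12 to 0.03), beside 6.04% to 12.7% and 5.51% to 9.26% of all genes.

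Whether the replicate numbers pair the samples cannot be told from 3 libraries per group. Deviations of same-numbered libraries correlated from -0.26 to 0.25. Between PBS and LPS, every KO library correlated best with its own number, as did WT replicates 1 and 2 (0.21 and 0.22). WT replicate 3 (-0.04) did not. With the replicate block, 47 rose and 1 fell in WT, 38 and 5 in KO, 8 were lower under PBS, 28 lower and 2 higher under LPS, and 2 and 1 passed the interaction test.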
